A study of Homo sapiens with 9 samples.

Results

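The genes described here are 37 genes of glycolysis and of the response to low oxygen, chosen by symbol from the 22295 entries of an RNA-seq table of U251 cells, an established human glioblastoma line. They comprise 4 glucose and lactate transporters, 15 glycolytic enzymes, 2 lactate dehydrogenase subunits, 3 PFKFB enzymes, 4 pyruvate dehydrogenase kinases (PDK), 2 alpha subunits of the hypoxia-inducible factor (HIF) and 7 HIF target genes. All 37 symbols were found in the table and all 37 passed the filter on low values, a mean of at least 0.1 FPKM (fragments per kilobase of transcript, scaled by the mapped fragments). The study knocked down PTBP1, an RNA-binding protein that represses splicing, with a lentiviral short hairpin RNA, to ask whether glioblastoma cells turn into neuron-like cells. The control group sh-Luci-3d was taken 3 days after infection with a hairpin against luciferase. The knockdown groups, with 3 libraries each like the control, were taken 3 days (sh-Ptbp1-3d) or 7 days (sh-Ptbp1-7d) after infection with the hairpin against PTBP1. All 3 groups were the same cell line, and the study's methods moved infected cells from day 2 into a neuronal induction medium with N2, B27, forskolin and dorsomorphin. No sh-Luci library of day 7 was analysed here, so knockdown, days after infection and time in the medium cannot be told apart in the comparisons with sh-Ptbp1-7d. Both of these comparisons share the sh-Ptbp1-7d libraries.

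Glycolysis splits glucose into pyruvate in the cytosol, with a net yield of ATP and NADH, and lactate dehydrogenase converts pyruvate to lactate while it restores NAD+. Many tumours, glioblastoma among them, run this route at a high rate even with oxygen present. HIF is a dimer of an alpha subunit, which prolyl hydroxylases mark for destruction when oxygen is present, and the ARNT subunit, and it activates many glycolytic genes together with genes of pH control, angiogenesis and mitophagy. PTBP1 has a known link to the pathway, since it represses one of a pair of mutually exclusive exons of PKM and so favours the PKM2 isoform of pyruvate kinase. GAPDH, a glycolytic enzyme, is also a usual reference for Western blot and qRT-PCR, and the study used it as such.

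HIF binds the letters ACGTG or GCGTG, the core of the hypoxia response element. These letters were searched on both strands of the RefSeq promoters on GRCh38.p14, each a window of 300 bases from 250 bases before to 50 bases after a transcription start, and matches that overlap were counted as 1 stretch. Of the 37 genes, 32 had a window, and 29 of these (90.6%) held the letters in at least 1 window, against 69.2% of the 10784 tested genes with a window. Genes with several starts have several windows. Counted by window, the letters were in 39 of 61 windows of the members (63.9%) and in 48.45% of all 35116 windows. This last share was taken whether or not the gene was tested here, unlike the share by gene. SLC2A3, SLC16A1, PFKFB2, VEGFA and NDRG1 were not matched. The 6 promoters below, each the only window of its gene, were chosen after the values were seen. They show a classical HIF target that fell at day 7 (CA9), members whose windows hold many matches (BNIP3 and PGK1), the most abundant glycolytic gene (GAPDH), the glycolytic enzyme with the largest fall past the FDR (PKM) and a HIF target that passed in no comparison when all libraries were used (ANKRD37). Capitals mark ACGTG or GCGTG or their reverse complements, and such a match is a description of the letters, not a binding site.
CA9, chr9:35673678-35673977, plus strand: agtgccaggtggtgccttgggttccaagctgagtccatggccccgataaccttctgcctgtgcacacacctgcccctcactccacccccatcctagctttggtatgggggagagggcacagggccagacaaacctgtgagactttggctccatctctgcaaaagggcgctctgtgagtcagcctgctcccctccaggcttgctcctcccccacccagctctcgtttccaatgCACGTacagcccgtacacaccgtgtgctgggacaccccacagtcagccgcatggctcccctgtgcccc
BNIP3, chr10:131981874-131982173, minus strand: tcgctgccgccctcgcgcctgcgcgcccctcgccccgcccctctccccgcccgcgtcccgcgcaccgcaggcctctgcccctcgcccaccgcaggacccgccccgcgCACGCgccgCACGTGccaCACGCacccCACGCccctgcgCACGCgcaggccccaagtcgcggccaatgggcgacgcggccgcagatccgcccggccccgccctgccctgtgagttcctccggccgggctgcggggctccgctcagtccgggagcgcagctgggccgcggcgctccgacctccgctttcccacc
PGK1, chrX:78103998-78104297, plus strand: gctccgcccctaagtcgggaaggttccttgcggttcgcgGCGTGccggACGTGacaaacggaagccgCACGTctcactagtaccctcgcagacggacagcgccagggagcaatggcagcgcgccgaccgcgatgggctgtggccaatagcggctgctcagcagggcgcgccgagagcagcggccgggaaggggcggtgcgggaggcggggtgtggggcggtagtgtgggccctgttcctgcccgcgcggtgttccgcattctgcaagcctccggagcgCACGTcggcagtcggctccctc
GAPDH, chr12:6535014-6535313, plus strand: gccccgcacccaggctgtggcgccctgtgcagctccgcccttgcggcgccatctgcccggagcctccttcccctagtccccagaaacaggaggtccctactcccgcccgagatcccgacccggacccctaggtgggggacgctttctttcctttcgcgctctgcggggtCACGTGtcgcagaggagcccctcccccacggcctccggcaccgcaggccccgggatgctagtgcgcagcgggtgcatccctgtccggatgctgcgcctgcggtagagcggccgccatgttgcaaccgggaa
PKM, chr15:72231141-72231440, minus strand: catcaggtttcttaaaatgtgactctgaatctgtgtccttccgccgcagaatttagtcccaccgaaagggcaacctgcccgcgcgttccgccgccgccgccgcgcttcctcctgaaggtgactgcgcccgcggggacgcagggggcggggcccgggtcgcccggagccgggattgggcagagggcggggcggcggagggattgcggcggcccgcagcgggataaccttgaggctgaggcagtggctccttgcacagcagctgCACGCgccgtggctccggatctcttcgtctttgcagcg
ANKRD37, chr4:185396591-185396890, plus strand: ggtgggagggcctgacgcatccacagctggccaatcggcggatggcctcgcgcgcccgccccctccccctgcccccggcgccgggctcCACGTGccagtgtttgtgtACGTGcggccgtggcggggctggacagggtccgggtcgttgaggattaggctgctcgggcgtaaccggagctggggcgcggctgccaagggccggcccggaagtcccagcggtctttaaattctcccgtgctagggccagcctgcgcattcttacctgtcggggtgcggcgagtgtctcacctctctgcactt
The window of BNIP3 held 5 stretches, that of PGK1 held 4, that of ANKRD37 held 2, and those of CA9, GAPDH and PKM held 1 each. As the genes were chosen for their values, nothing is read from how matches and changes go together.

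The FPKM values of the libraries summed to between 367400 and 404900. The number of reads behind the values is unknown, so no counting interval can be given. Nothing in the labels says that the libraries of a group are separate cultures, and p-values therefore measure the spread between these libraries, which may be technical. The targeted gene PTBP1 averaged, with its SD over 3 libraries, 115.7 ± 7.58 FPKM in sh-Luci-3d, 63.9 ± 2.67 in sh-Ptbp1-3d and 50.5 ± 0.645 in sh-Ptbp1-7d, and the 3 groups did not overlap. Among 9 astroglial and glioma markers, VIM was at 4168, 4381 and 1169 FPKM in the means of the 3 groups and SOX2 at 106, 124 and 145, while GFAP and S100B stayed below 1 FPKM in each mean. The 9 summed to 4470 to 4596 FPKM in sh-Luci-3d, 4593 to 4889 in sh-Ptbp1-3d and 1393 to 1514 in sh-Ptbp1-7d. VIM made up most of this sum, so the fall of the sum at day 7 is mainly that of VIM. By the test used below, at an FDR of 0.01, 3 of the 9 fell from sh-Ptbp1-3d to sh-Ptbp1-7d, 1 rose and 5 did not pass. Of all genes tested, 15.5% fell and 20.3% rose. The part of these changes in the results below was not tested. Of 6 blood and immune markers, 4 stayed below 1 FPKM in all libraries, and 2 of these, the T cell marker CD3E among them, were at 0. The 6 summed to 10.2 to 11.4 FPKM in sh-Luci-3d, 10.7 to 11.3 in sh-Ptbp1-3d and 16.1 to 19.0 in sh-Ptbp1-7d. All 4 endothelial markers were below 1 FPKM. The neuronal markers gave no single direction at day 7, with MAP2 higher and TUBB3 lower. Of the 7 on the list 6 were tested, and from sh-Ptbp1-3d to sh-Ptbp1-7d 1 rose, 1 fell and 4 did not pass. The 7 summed to 270.7 to 320.4 FPKM in sh-Luci-3d, 341.0 to 361.7 in sh-Ptbp1-3d and 163.8 to 170.2 in sh-Ptbp1-7d. In these bulk samples, fewer cells of a type and less RNA per cell cannot be told apart. Replicate 3 of sh-Luci-3d stood apart from replicates 1 and 2 for several members (SLC16A3, ANKRD37, PFKL and HIF1A), and results whose call changed without it are given below both ways. Changes of size alone are given for some members only. It also enters the tests between the knockdown groups, since all 3 groups share 1 estimate of the spread of each gene.

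Knockdown at day 3 left the members close to the control. In sh-Ptbp1-3d against sh-Luci-3d, 0 of 37 members passed limma's test at a false discovery rate (FDR) of 0.05, beside 0.0322% of the 15551 genes tested. By unadjusted p below 0.05, 3 members passed (PDK1, ANKRD37 and BNIP3), beside 7.24% of the genes tested, and in 5 members the groups did not overlap, beside 10.8%. The log2 fold changes of FPKM + 0.1, the scale of all fold changes below, lay between -0.31 for PFKFB2 and 0.50 for ANKRD37, with a median of -0.002 beside 0.010 for all genes tested. This scale understates changes of genes with low values. GAPDH differed by -0.00 (SE 0.104; SE is limma's standard error) and PKM by -0.03 (SE 0.081). Without replicate 3 of sh-Luci-3d, 4 members passed at the same FDR, beside 6.37% of 15582 genes (5.02% higher and 1.35% lower). SLC16A3 (0.65, limma adjusted p = 0.0227), PFKL (0.31, adjusted p = 0.0197) and ANKRD37 (0.78, adjusted p = 0.00332) were then higher in sh-Ptbp1-3d, and BNIP3 (-0.29, adjusted p = 0.044) was lower. The day-3 result for these 4 genes thus depends on 1 control library.

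Day 7 differed from day 3 in most members, and most of those that differed were lower. In sh-Ptbp1-7d relative to sh-Ptbp1-3d, 20 members fell and 3 rose at an FDR of 0.01, and 14 did not pass. The same test called 35.8% of all genes tested, 15.5% as lower and 20.3% as higher, so 54.1% of the members fell where 15.5% of all genes did. With the stricter demand of a fold change above 2, 6 members fell (SLC16A3, GAPDH, PKM, PDK3, CA9 and NDRG1) and SLC2A3 rose, beside 5.9% of all genes lower and 8.31% higher. The median log2 fold change of the members was -0.51, and that of all genes tested was 0.09. The day-7 libraries did not overlap those of sh-Ptbp1-3d in 29 members, beside 62.3% of all genes, and those of sh-Luci-3d in 26, beside 55.9%. Against sh-Luci-3d, 18 members fell and 3 rose in sh-Ptbp1-7d, where 35.6% of all genes passed, beside 15% of all genes lower and 20.6% higher, with a median of -0.52 beside 0.10. Past a fold change of 2 were 7 members that fell (GPI, GAPDH, PKM, LDHA, PDK3, CA9 and NDRG1) and again SLC2A3, beside 5.68% of all genes lower and 8.93% higher. Under quantile normalization, which moved the median of all genes by -0.10 in the first of these comparisons, the median of the members lay 0.46 below that of all genes, and it lay 0.60 below with FPKM as deposited.

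Many members are abundant, and abundant genes as a class were lower at day 7. Of the 12 members with a mean of at least 100 FPKM, 10 fell in sh-Ptbp1-7d relative to sh-Ptbp1-3d (83.3%), with a median log2 fold change of -0.75. Of the 522 other genes at this level, 50% fell, with a median of -0.43, and against sh-Luci-3d 48.5% fell beside 11 of the 12 members. Among the 25 members under 100 FPKM, 10 fell and 3 rose, with a median of -0.26, while 14.3% of the 14992 other genes under 100 FPKM fell, with a median of 0.11. The part of expression level in the members' result was not tested.

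**Figure D1:**
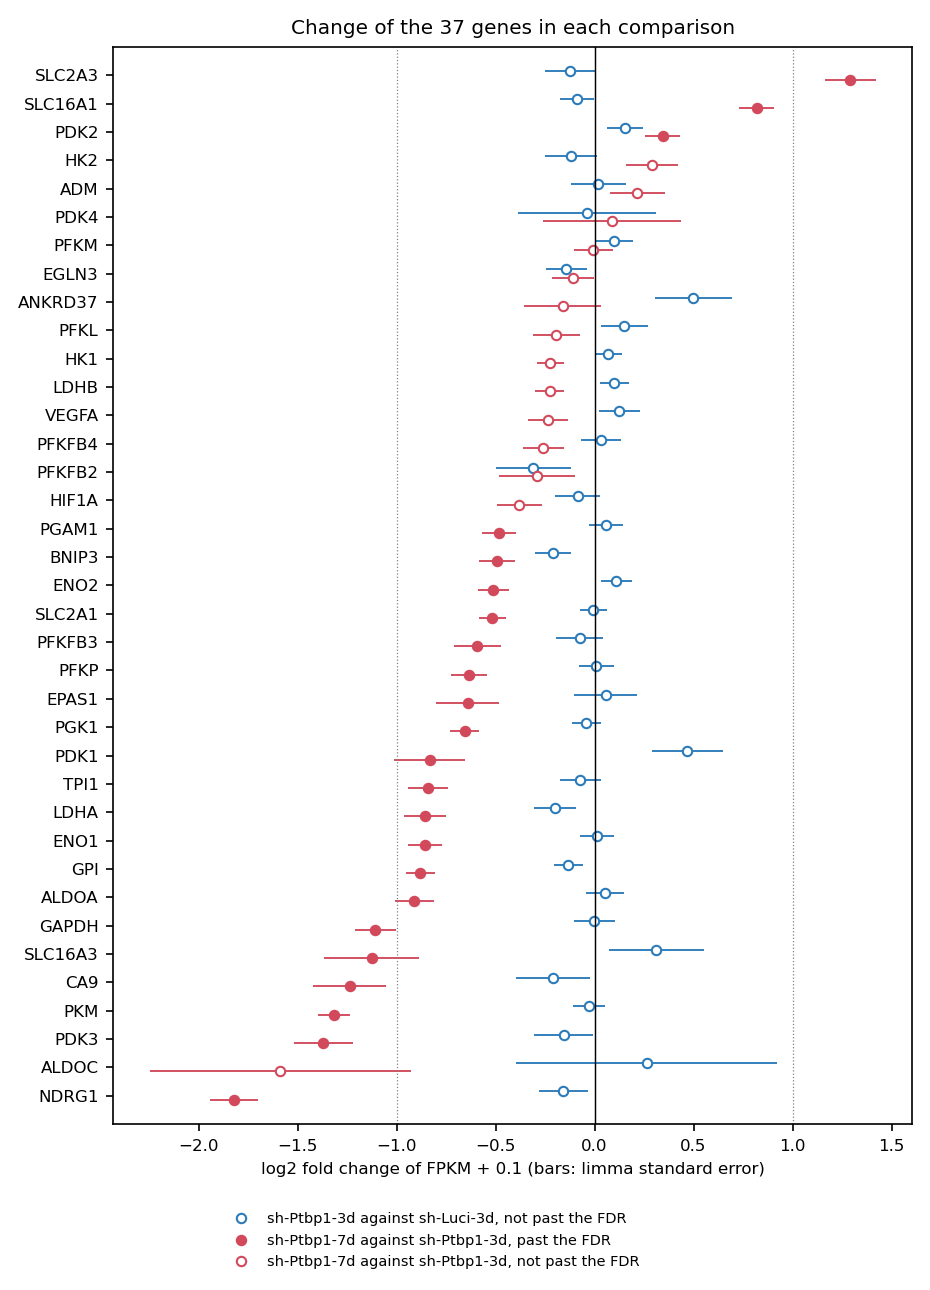
Log2 fold change of FPKM + 0.1 (horizontal axis; bars are limma's SE) for the 37 genes in sh-Ptbp1-3d against sh-Luci-3d (blue) and sh-Ptbp1-7d relative to sh-Ptbp1-3d (red), with filled points past the FDR. The blue points lie between -0.31 and 0.50 and are all open, while 20 red points are filled on the lower side and 3 on the higher side.

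The transporters changed in opposite directions at day 7. SLC2A3 encodes GLUT3, a glucose transporter of high affinity and the main one of neurons. SLC2A3 (chr12:7919230-7936275, minus strand) was at 7.77, 7.30 and 5.63 FPKM in sh-Luci-3d, 6.35, 6.48 and 5.98 in sh-Ptbp1-3d and 14.3, 17.5 and 14.8 in sh-Ptbp1-7d. All day-7 libraries were above all day-3 libraries, and the gene rose by 1.29 on the log2 scale from sh-Ptbp1-3d (SE 0.129, adjusted p = 1.49e-05) and by 1.17 from sh-Luci-3d. SLC2A1 encodes GLUT1, the glucose transporter of most proliferating cells. SLC2A1 (chr1:42925375-42959176, minus strand) was at 77.3, 78.9 and 83.4 FPKM, 80.5, 81.8 and 76.2 FPKM and 54.1, 55.3 and 57.3 FPKM in the same order of groups. It fell by 0.52 on the log2 scale from sh-Ptbp1-3d (SE 0.068, adjusted p = 0.000114), without overlap between the groups. SLC2A1 remained the more abundant of the pair, and the ratio of SLC2A3 to SLC2A1 in FPKM went from 0.0868 ± 0.0172 and 0.0788 ± 0.0004 (SD, n = 3) at day 3 to 0.280 ± 0.031 at day 7. Near its start, 262 bases of SLC2A1 overlap an assembled locus on the opposite strand that averaged 0.561, 1.23 and 0.705 FPKM in the 3 groups.

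The monocarboxylate transporters carry lactate and pyruvate across the cell membrane. SLC16A1 (MCT1, chr1:112911847-112957013) was at 50.3, 53.6 and 44.2 FPKM in sh-Luci-3d, 44.1, 47.9 and 46.9 in sh-Ptbp1-3d and 82.7, 85.5 and 77.0 in sh-Ptbp1-7d. It rose by 0.82 on the log2 scale (SE 0.086, adjusted p = 2.2e-05) from sh-Ptbp1-3d and by 0.73 from sh-Luci-3d. SLC16A3 (MCT4, chr17:82228397-82261129), a transporter suited to lactate export and a known HIF target, was at 54.9, 53.3 and 110.4 FPKM, 88.4, 85.0 and 82.3 FPKM and 48.0, 37.6 and 32.9 FPKM. It fell by 1.12 on the log2 scale from sh-Ptbp1-3d (SE 0.24, adjusted p = 0.00276), with all day-7 libraries below all day-3 libraries. Against sh-Luci-3d its change was -0.81 (adjusted p = 0.0162), which missed the FDR of 0.01, and the control libraries themselves ranged from 53.3 to 110.4 FPKM. This change was -0.47 without sh-Luci-3d replicate 3 (adjusted p = 0.0118), and it passed without sh-Luci-3d replicate 2 (-0.995, adjusted p = 0.00852) and under quantile normalization (-0.81, adjusted p = 0.00909). The fall from sh-Ptbp1-3d missed the FDR, with log2 fold changes of -1.099, -1.099 and -1.003, without sh-Ptbp1-3d replicate 1 (adjusted p = 0.0108) and without sh-Ptbp1-7d replicate 2 (0.0109) or 3 (0.0143). With its fold unchanged it also missed the FDR without the filter on low values (0.0259) and in the fit with no trend of the spread on level (0.0102). The ratio of SLC16A3 to SLC16A1 was 1.1, 1.0 and 2.5 in the sh-Luci-3d libraries, 2.0, 1.8 and 1.8 in sh-Ptbp1-3d and 0.580, 0.440 and 0.428 in sh-Ptbp1-7d, so that SLC16A1 became the more abundant of the pair. An exon of CSNK1D (82.9 FPKM) lies on the opposite strand over SLC16A3, and reads of the overlap could not be assigned where the counting ignored strand.

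**Figure D2:**
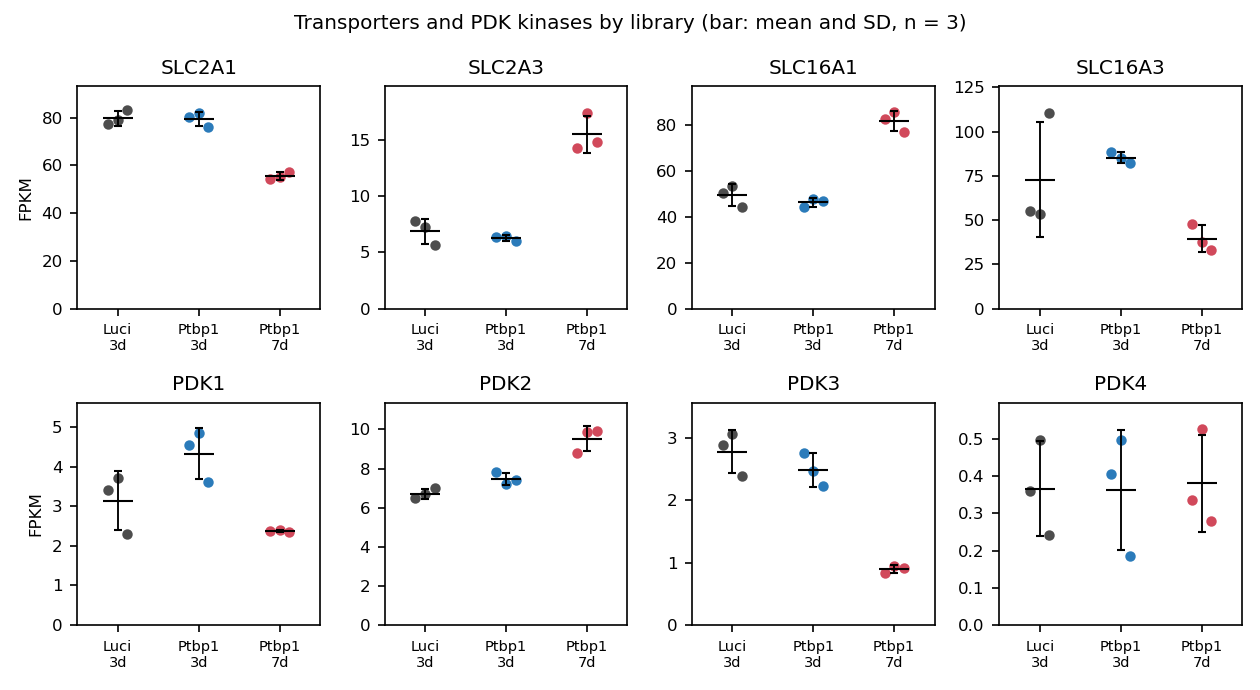
FPKM (vertical axes, from 0) of the 4 transporters and the 4 PDK kinases in each library, with the mean and SD of each group (n = 3). SLC2A3, SLC16A1 and PDK2 are higher in all 3 sh-Ptbp1-7d libraries than in the day-3 libraries, SLC2A1 and PDK3 are lower, and 1 sh-Luci-3d library of SLC16A3 reaches 110.4 FPKM.

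Of the 15 glycolytic enzymes, 10 fell at day 7 against each day-3 group and none rose. Of all genes tested, 15.5% fell and 20.3% rose from sh-Ptbp1-3d, and 15% fell and 20.6% rose from sh-Luci-3d, while of the 522 other genes of at least 100 FPKM 50% and 48.5% fell. Summed over the 15 genes, the level was 10180 to 11320 FPKM in sh-Luci-3d, 10200 to 10930 in sh-Ptbp1-3d and 5183 to 5694 in sh-Ptbp1-7d. This was 2.71%, 2.67% and 1.46% of the summed FPKM of the libraries. The genes that fell catalyse steps from the isomerization of glucose-6-phosphate to the formation of pyruvate, and each of them except ENO2 averaged at least 91.3 FPKM in every group.

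Hexokinase opens the pathway by phosphorylating glucose, and neither form passed in the fit of all libraries. HK1 was at 53.4 ± 2.57, 56.0 ± 2.41 and 48.0 ± 0.831 FPKM (SD, n = 3) in sh-Luci-3d, then sh-Ptbp1-3d, then sh-Ptbp1-7d, with a log2 fold change of -0.22 (adjusted p = 0.0218) from sh-Ptbp1-3d. This difference passed the FDR of 0.01 in 4 of 20 alternatives, without sh-Luci-3d replicate 3 (adjusted p = 0.00476), with median-ratio scaling (0.00403), without the filter on low values (0.00866) and with the 2 groups fitted alone (0.00929). HK2, the form linked to tumour glycolysis, was at 5.25 ± 0.458, 4.81 ± 0.167 and 5.97 ± 0.975 FPKM, a difference of 0.29 (adjusted p = 0.0878). HK1 was thus the main form in all groups, per kilobase of transcript. Glucose-6-phosphate isomerase (GPI, chr19:34359480-34402413) was at 249.3, 233.4 and 244.8 FPKM in sh-Luci-3d, 226.1, 228.9 and 209.0 in sh-Ptbp1-3d and 115.9, 117.7 and 127.0 in sh-Ptbp1-7d. It fell by 0.88 from sh-Ptbp1-3d (SE 0.074, adjusted p = 4.07e-06) and by 1.01 from sh-Luci-3d.

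Phosphofructokinase commits the sugar to glycolysis and has 3 genes. PFKP, the platelet form and the most abundant of the 3 here, was at 135.6, 131.1 and 156.7 FPKM in sh-Luci-3d, 145.6, 145.0 and 134.4 in sh-Ptbp1-3d and 97.3, 92.5 and 84.1 in sh-Ptbp1-7d, and fell by 0.64 (SE 0.09, adjusted p = 0.000181). PFKL, the liver form, averaged 59.6 ± 12.3, 65.3 ± 1.34 and 57.1 ± 2.54 FPKM (adjusted p = 0.211 for sh-Ptbp1-7d relative to sh-Ptbp1-3d), and PFKM, the muscle form, 22.6 ± 2.42, 24.1 ± 1.99 and 24.0 ± 0.991 FPKM (adjusted p = 0.963). The ratio of PFKP to PFKL was 2.40 ± 0.241 and 2.17 ± 0.059 at day 3 and 1.60 ± 0.074 at day 7, and the day-7 libraries did not overlap the others.

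Aldolase splits fructose-1,6-bisphosphate. ALDOA (chr16:30064164-30070457) was at 1243, 1219 and 1392 FPKM in sh-Luci-3d, 1377, 1335 and 1280 in sh-Ptbp1-3d and 650, 699 and 781 in sh-Ptbp1-7d, and it fell by 0.91 (SE 0.097, adjusted p = 2.45e-05). An annotated locus on the same strand, AC093512.2, shares exons with it and averaged 33.4 FPKM. ALDOC, the brain form, was low, between 0.0333 and 1.60 FPKM over the 9 libraries, and its groups overlapped (-1.59, adjusted p = 0.0675). Triosephosphate isomerase (TPI1, chr12:6867119-6870948), which interconverts the products of aldolase, was at 607, 554 and 704 FPKM, 638, 586 and 546 FPKM and 344, 326 and 318 FPKM, and fell by 0.84 (SE 0.102, adjusted p = 6.04e-05).

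GAPDH, which oxidizes glyceraldehyde-3-phosphate, was the most abundant member in every group. GAPDH (chr12:6533927-6538374) was at 4556, 4555 and 4896 FPKM in sh-Luci-3d, 4751, 4741 and 4492 in sh-Ptbp1-3d and 2000, 2128 and 2375 in sh-Ptbp1-7d. The day-7 level was 46.5% of the sh-Ptbp1-3d mean, with a log2 fold change of -1.11 (SE 0.104, adjusted p = 9.5e-06), and the groups did not overlap. It was -1.11 against sh-Luci-3d as well (adjusted p = 9.26e-06). When genes with low values were kept in the fit, the adjusted p was 0.117 in both comparisons. The fold change was the same and the SE was 0.453, and the cause was not tested. Its rank among all genes went from 4 to 7 in the day-3 libraries to 13 or 14 in the day-7 libraries.

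Below GAPDH the pathway fell as well. PGK1, which makes the first ATP of the pathway (chrX:77910739-78129296), was at 220.7, 206.6 and 207.7 FPKM in sh-Luci-3d, 203.2, 215.6 and 198.5 in sh-Ptbp1-3d and 125.7, 138.8 and 127.4 in sh-Ptbp1-7d, a fall of 0.66 (SE 0.074, adjusted p = 3.45e-05). Phosphoglycerate mutase, PGAM1, was at 518, 486 and 580 FPKM, 555, 571 and 519 FPKM and 393, 395 and 386 FPKM, and fell by 0.48 (SE 0.085, adjusted p = 0.000821), but its change was -0.00 (adjusted p = 0.981) under quantile normalization. ENO1, the main enolase (chr1:8861000-8879250), was at 1332, 1272 and 1439 FPKM, 1409, 1381 and 1286 FPKM and 746, 733 and 771 FPKM, and fell by 0.86 (SE 0.086, adjusted p = 1.53e-05). Of these, PGAM1 had the smallest fall, and its call depended on the scaling. The sizes of other falls from sh-Ptbp1-3d varied too, though their calls held in all 20 alternatives. The smallest log2 fold changes were -0.514 for PGK1, -0.545 for ENO1, -0.57 for ALDOA and -0.335 for TPI1. ENO2, the neuron-specific enolase, did not rise but fell by 0.51 (SE 0.079, adjusted p = 0.000329), from 29.9, 32.0 and 31.9 FPKM in sh-Ptbp1-3d to 21.3, 23.6 and 20.9 in sh-Ptbp1-7d. As ENO1 fell by more, the ratio of ENO2 to ENO1 was 0.0231 ± 0.0018 in sh-Ptbp1-3d and 0.0293 ± 0.0026 in sh-Ptbp1-7d.

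Pyruvate kinase, the product of PKM, makes pyruvate and the last ATP of the pathway. PKM (chr15:72199029-72231822, minus strand) was at 1396, 1366 and 1509 FPKM in sh-Luci-3d, 1441, 1396 and 1353 in sh-Ptbp1-3d and 551, 559 and 574 in sh-Ptbp1-7d. The day-7 level was 40.2% of that of sh-Ptbp1-3d, a log2 fold change of -1.31 (SE 0.081, adjusted p = 4.33e-07), and this was the largest fall past the FDR among the glycolytic enzymes. At day 3, with PTBP1 already lower, PKM differed from the control by -0.03 (adjusted p = 0.96). These values sum over the transcripts of the gene, so the shares of its PKM1 and PKM2 isoforms were not measured here. Of the other regulators of this splicing choice, SRSF3 fell at day 3 of the knockdown (-0.71 against sh-Luci-3d, adjusted p = 0.00857) and rose by 0.63 from there to day 7. HNRNPA2B1 fell by 0.43 and NEK2, a mitotic kinase, by 1.51 from sh-Ptbp1-3d to sh-Ptbp1-7d, while HNRNPA1 (-0.38, adjusted p = 0.0112) and RBM4 (-0.27, adjusted p = 0.0134) missed the FDR of 0.01.

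**Figure D3:**
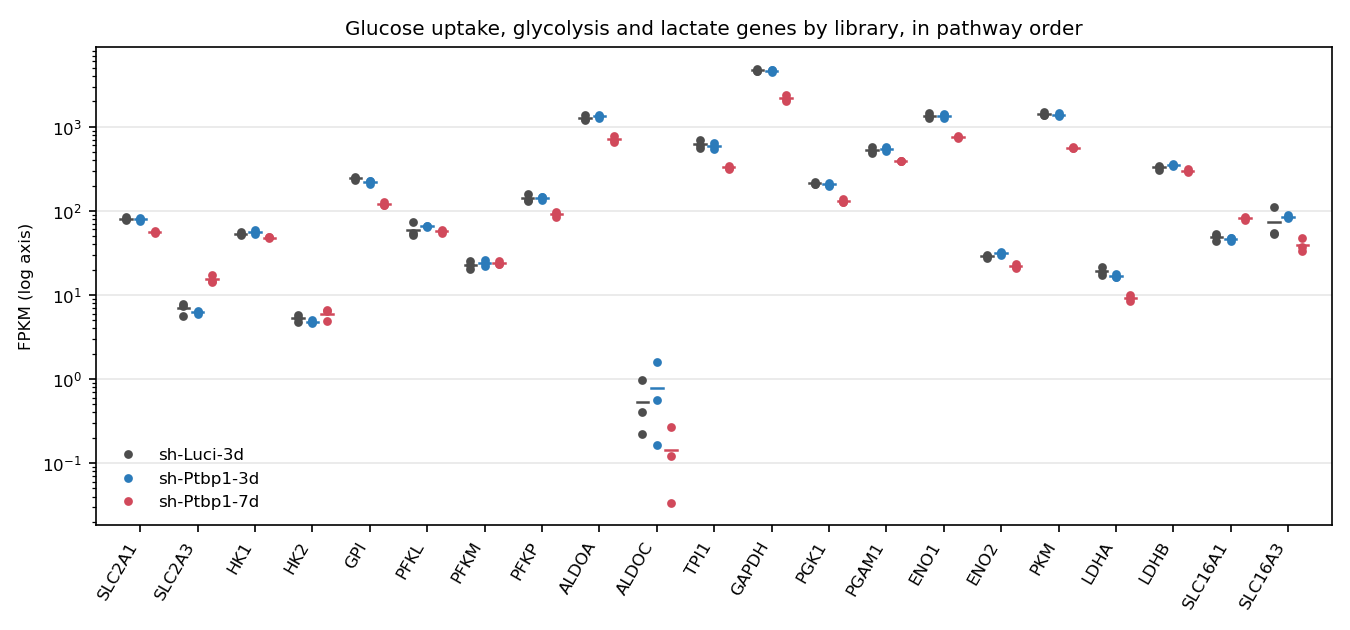
FPKM on a log axis of the transporters, glycolytic enzymes and lactate dehydrogenases in pathway order, with 1 point per library and a line at each group mean. In the abundant enzymes from ALDOA to PKM the 3 sh-Ptbp1-7d points (red) sit below the 6 day-3 points, for GAPDH at 2000 to 2375 against 4492 to 4896 FPKM, while SLC2A3 and SLC16A1 sit above them.

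Lactate dehydrogenase is a tetramer of LDHA and LDHB subunits, and LDHB was the more abundant transcript here. LDHA (chr11:18394388-18408425) was at 21.7, 18.5 and 17.4 FPKM in sh-Luci-3d, 17.5, 16.4 and 16.1 in sh-Ptbp1-3d and 8.39, 9.10 and 10.1 in sh-Ptbp1-7d. It fell by 0.86 from sh-Ptbp1-3d (SE 0.104, adjusted p = 6.22e-05) and by 1.05 from sh-Luci-3d. LDHB was at 329 ± 16.6, 352 ± 9.89 and 301 ± 13.2 FPKM, a change of -0.23 (adjusted p = 0.0267) from sh-Ptbp1-3d, and it turned to 0.26 (adjusted p = 0.00579) under quantile normalization. Without sh-Luci-3d replicate 3 it passed with the same fold (adjusted p = 0.00855). The ratio of LDHA to LDHB, between 0.0452 and 0.0646 in the day-3 libraries, was between 0.0291 and 0.0321 in the day-7 libraries. GENCODE v29 names 62 pseudogenes after GAPDH, 39 after BNIP3, 13 after PGAM1, 6 after LDHA, 5 after PKM and 4 each after TPI1 and ENO1. None of these has an entry of its own in the table, and how reads that match several copies were counted is not given in the sources used here, so the levels of these genes are uncertain to that extent.

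The PFKFB enzymes set the level of fructose-2,6-bisphosphate, the main activator of phosphofructokinase, and PFKFB3 and PFKFB4 are HIF targets. PFKFB3 (chr10:6144934-6254644), the abundant member here, was at 125.1, 112.8 and 120.6 FPKM in sh-Luci-3d, 117.0, 116.0 and 107.2 in sh-Ptbp1-3d and 79.2, 87.6 and 61.2 in sh-Ptbp1-7d, and fell by 0.59 (SE 0.118, adjusted p = 0.00181). Its adjusted p was 0.0126 without the filter on low values. PFKFB4 was at 17.0 ± 0.341, 17.4 ± 1.17 and 14.6 ± 2.02 FPKM and PFKFB2 at 1.04 ± 0.102, 0.822 ± 0.074 and 0.659 ± 0.123 FPKM, and neither passed from sh-Ptbp1-3d to sh-Ptbp1-7d (adjusted p = 0.0577 and 0.23).

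The PDK kinases inactivate pyruvate dehydrogenase and so hold pyruvate back from the mitochondria. They differed among themselves at day 7. PDK3 (chrX:24465221-24541862) was at 2.89, 3.06 and 2.39 FPKM in sh-Luci-3d, 2.76, 2.47 and 2.22 in sh-Ptbp1-3d and 0.831, 0.947 and 0.911 in sh-Ptbp1-7d, and fell by 1.37 (SE 0.149, adjusted p = 2.74e-05). PDK1, the kinase induced by HIF, was at 3.40, 3.72 and 2.30 FPKM, 4.54, 4.85 and 3.61 FPKM and 2.37, 2.40 and 2.34 FPKM. It fell by 0.83 from sh-Ptbp1-3d (SE 0.179, adjusted p = 0.00286), and against sh-Luci-3d, whose replicate 3 was as low as the day-7 libraries, the change was -0.36 (adjusted p = 0.115) with it and -0.57 (adjusted p = 0.00695) without it. The fall from sh-Ptbp1-3d missed the FDR, while it stayed between -0.83 and -0.75, without sh-Ptbp1-3d replicate 1 (adjusted p = 0.013) or 2 (0.0152), without sh-Ptbp1-7d replicate 1 (0.01) or 3 (0.0101), and without the filter on low values (0.015). PDK2 was at 6.47, 6.71 and 6.98 FPKM, 7.82, 7.20 and 7.43 FPKM and 8.80, 9.88 and 9.90 FPKM, and its rise of 0.34 from sh-Ptbp1-3d (adjusted p = 0.00906) lay at the threshold, while the rise of 0.50 from sh-Luci-3d had an adjusted p of 0.000999. The first of these missed the FDR in 12 of 20 alternatives. These were leaving out any 1 of 8 libraries, all but sh-Luci-3d replicate 3 (log2 fold change 0.31 to 0.40, adjusted p between 0.0104 and 0.0417), median-ratio scaling (0.26, adjusted p = 0.0447), quantile normalization (0.23, adjusted p = 0.0647), the replicate block (0.34, adjusted p = 0.0143) and the fit with no trend (0.34, adjusted p = 0.0108). PDK4 was between 0.364 and 0.381 FPKM in the group means (adjusted p = 0.856). Summed over the 4 genes, the level was 11.9 to 14 FPKM in sh-Luci-3d, 13.5 to 15.5 in sh-Ptbp1-3d and 12.3 to 13.8 in sh-Ptbp1-7d.

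Both HIF alpha subunits were lower at day 7, each past the FDR in 1 of the day-7 comparisons. HIF1A was at 141.1, 144.7 and 105.6 FPKM in sh-Luci-3d, 120.2, 129.8 and 115.7 in sh-Ptbp1-3d and 95.6, 93.5 and 91.5 in sh-Ptbp1-7d. Its change was -0.47 against sh-Luci-3d (adjusted p = 0.00565) and -0.38 against sh-Ptbp1-3d (adjusted p = 0.0164), and the day-7 libraries were below all others. Without sh-Luci-3d replicate 3 the changes were -0.61 (adjusted p = 3.17e-05) and -0.38 (adjusted p = 0.00029). The second also passed with median-ratio scaling (-0.47, adjusted p = 0.00391) and with the 2 groups fitted alone (adjusted p = 0.000828). EPAS1, which encodes HIF-2 alpha, was at 2.36, 2.35 and 2.12 FPKM, 2.70, 2.14 and 2.29 FPKM and 1.69, 1.58 and 1.22 FPKM, with changes of -0.58 against sh-Luci-3d (adjusted p = 0.0103) and -0.64 against sh-Ptbp1-3d (adjusted p = 0.00628). The first of these passed in 7 of 20 alternatives, with adjusted p between 0.000785 and 0.00996. The 2 calls made with all libraries missed the FDR when some single libraries were left out, with the direction kept. For HIF1A against sh-Luci-3d this held without 5 libraries, sh-Luci-3d replicates 1 and 2 and each of the sh-Ptbp1-7d libraries, with log2 fold changes of -0.48 to -0.38 and adjusted p between 0.0155 and 0.0252. Of 20 alternatives in all, 10 ended that call. For EPAS1 against sh-Ptbp1-3d it held without each of the sh-Ptbp1-3d libraries and without sh-Ptbp1-7d replicates 2 and 3, with log2 fold changes of -0.71 to -0.51 and adjusted p between 0.0112 and 0.0318, and 8 of 20 alternatives ended the call. HIF activity is set mainly through protein stability, which transcript levels do not measure.

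The 7 HIF target genes did not move as 1 group, with 3 that fell in both day-7 comparisons and 4 that passed in neither. Of all genes tested, 15.5% fell and 20.3% rose from sh-Ptbp1-3d, and 15% fell and 20.6% rose from sh-Luci-3d. NDRG1, a stress-responsive gene linked to differentiation, was at 32.6, 32.5 and 33.8 FPKM in sh-Luci-3d, 28.0, 33.7 and 27.2 in sh-Ptbp1-3d and 8.39, 9.70 and 6.98 in sh-Ptbp1-7d. Its day-7 level was 28.2% of that of sh-Ptbp1-3d, a log2 fold change of -1.82 (SE 0.122, adjusted p = 8.07e-07) and the largest fall past the FDR of all members. CA9, a carbonic anhydrase of the cell surface with a part in pH control and a classical marker of hypoxia, was at 8.55, 5.70 and 9.47 FPKM, 6.06, 7.64 and 6.40 FPKM and 2.39, 3.17 and 2.81 FPKM. It fell by 1.24 (SE 0.186, adjusted p = 0.000281), without overlap between day 7 and day 3. BNIP3, a mitophagy receptor, was at 68.1, 66.0 and 56.2 FPKM, 52.6, 56.7 and 54.7 FPKM and 35.7, 39.9 and 41.1 FPKM, and fell by 0.49 (SE 0.091, adjusted p = 0.00111) from sh-Ptbp1-3d and by 0.70 from sh-Luci-3d.

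The other 4 targets did not pass when all libraries were used. VEGFA, the angiogenic growth factor, was at 41.5 ± 2.62, 45.3 ± 1.78 and 38.7 ± 5.28 FPKM in sh-Luci-3d, then sh-Ptbp1-3d, then sh-Ptbp1-7d, with -0.24 (adjusted p = 0.0775) from day 3 to day 7 of the knockdown. ADM, the peptide hormone adrenomedullin, was at 7.00 ± 0.98, 7.08 ± 0.782 and 8.26 ± 1.13 FPKM (0.22, adjusted p = 0.223). EGLN3, a prolyl hydroxylase of HIF that HIF itself induces, was at 5.88 ± 0.121, 5.32 ± 0.334 and 4.94 ± 0.482 FPKM (-0.11, adjusted p = 0.423). The day-7 means of these 3 genes were between 85.4% and 117% of the sh-Ptbp1-3d means. ANKRD37 was at 5.37, 5.01 and 9.45 FPKM in sh-Luci-3d, 8.55, 9.38 and 9.10 in sh-Ptbp1-3d and 7.80, 8.13 and 8.21 in sh-Ptbp1-7d, and replicate 3 of sh-Luci-3d lay with the knockdown libraries rather than with replicates 1 and 2. Without that library ANKRD37 was higher than the control at day 3 (above) and at day 7 (0.62, adjusted p = 0.000186). Exons of UFSP2 (8.89 FPKM) lie over ANKRD37 on the opposite strand, and those of ARHGEF39 (5.19 FPKM) over CA9.

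**Figure D4:**
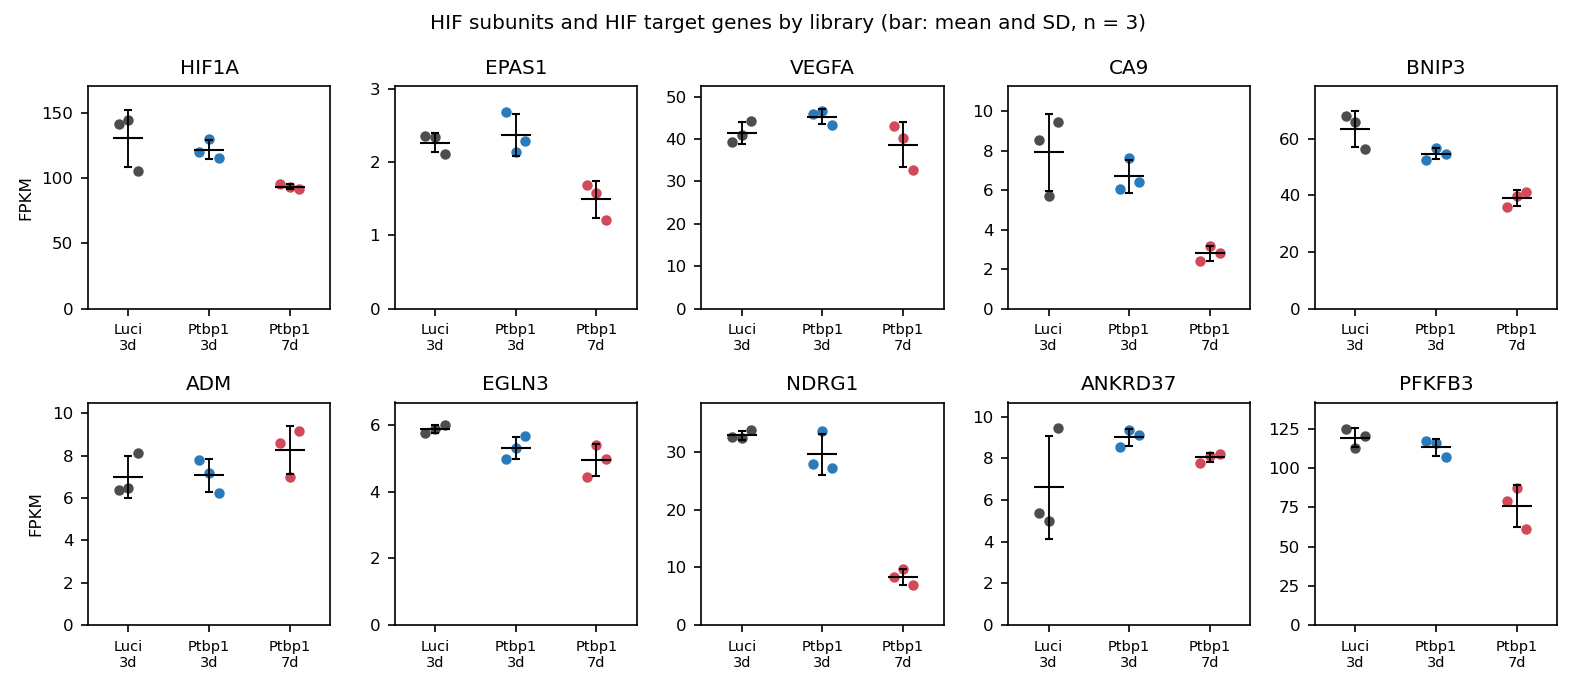
FPKM (vertical axes, from 0) of the HIF subunits, the 7 HIF target genes and PFKFB3 in each library, with the mean and SD of each group (n = 3). NDRG1, CA9 and BNIP3 are lower in all sh-Ptbp1-7d libraries, VEGFA, ADM and EGLN3 stay near their day-3 levels, and 1 sh-Luci-3d library of ANKRD37 lies at 9.45 FPKM beside 5.37 and 5.01.

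As GAPDH serves as a reference for other measurements, its change was set beside that of other genes. From sh-Ptbp1-3d to sh-Ptbp1-7d, 93.8% of the genes tested had a log2 fold change above that of GAPDH, and against sh-Luci-3d 94.3% had. A transcript at a constant FPKM would rise 2.16-fold when given relative to GAPDH, in RNA from day 7 against day 3 of the knockdown. At day 3 the same shift was 1.0-fold. Both shifts are of RNA. GAPDH protein, the reference of the study's Western blots, was not measured in these data, so they give no shift for the blots. Of 23 other genes in use as references, 20 had a change above that of GAPDH and TUBA1B (-1.21), PPIA (-1.24) and RPLP0 (-1.82) were below it. By the test, 12 of the 23 fell at day 7 against sh-Ptbp1-3d, 3 rose and 8 did not pass. Of all genes tested, 15.5% fell and 20.3% rose. Among the 522 genes of at least 100 FPKM outside the members, 50% fell and 16.5% rose. The part of expression level in the changes of the reference genes was not tested. ACTB, the actin gene often used in place of GAPDH, fell by 0.84, TUBB by 1.07, PSMB4 by 0.65, YWHAZ by 0.64, VCP by 0.46, SNRPD3 by 0.42, HPRT1 by 0.40, and PSMB2 and VPS29 by 0.38 each. B2M, the light chain of HLA class I, rose by 3.15 and EMC7 by 0.96. Those that did not pass included CHMP2A (-0.03), C1orf43 (0.06), RAB7A (0.15), SDHA (0.19), GUSB (0.24), REEP5 (-0.27) and TBP (0.44). All these values depend on the FPKM scaling, since a transcript per cell was not measured.

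**Figure D5:**
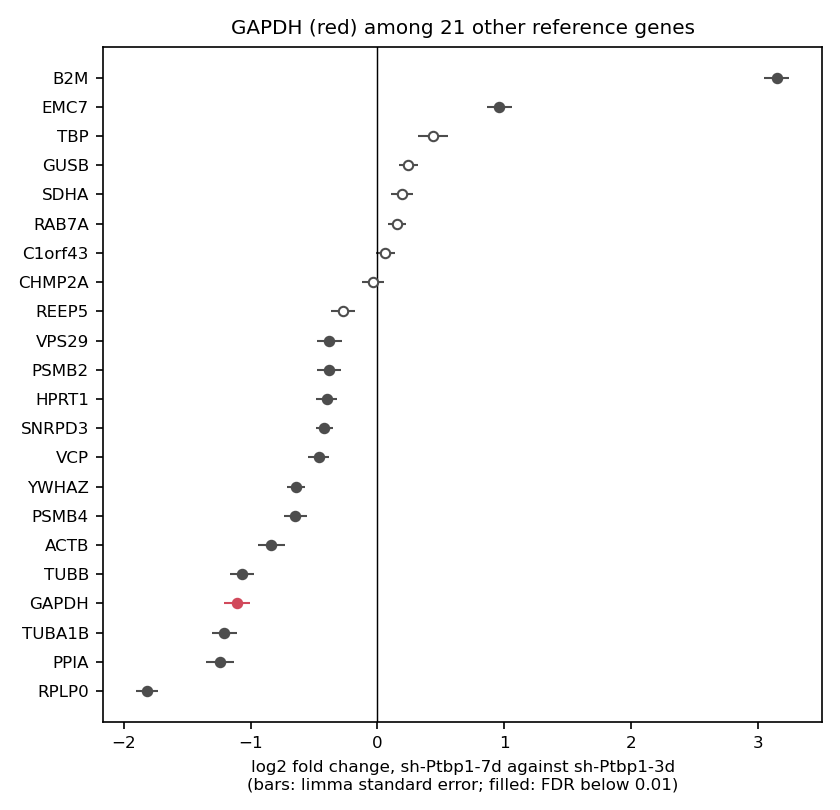
Log2 fold change of FPKM + 0.1 from sh-Ptbp1-3d to sh-Ptbp1-7d (bars are limma's SE, filled points have an FDR below 0.01) for GAPDH in red and 21 of the other reference genes. GAPDH at -1.11 lies near the lower end of a range from -1.82 for RPLP0 to 3.15 for B2M.

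The genes around glycolysis were read from lists. Of 13 further isoenzymes of the pathway, only 4 were expressed enough to be tested. In sh-Ptbp1-7d relative to sh-Ptbp1-3d the ADP-dependent glucokinase ADPGK (0.51) and the testis form GAPDHS (0.68, from 1.71 to 2.76 FPKM) rose, beside 20.3% of all genes. The pentose phosphate pathway branches off glucose-6-phosphate to make NADPH and ribose. Of its 8 genes, 4 fell and none rose, beside 15.5% of all genes lower and 20.3% higher. Among the 522 genes of at least 100 FPKM outside the members, 50% fell, and the part of expression level was not tested. TKT, transketolase, fell by 1.54 (adjusted p = 3.44e-07), PGD by 1.13 and TALDO1, transaldolase, by 0.99. The sum over the 8 genes was 1305 to 1525 FPKM in sh-Luci-3d, 1377 to 1473 in sh-Ptbp1-3d and 531.6 to 565.5 in sh-Ptbp1-7d. Of 25 genes of pyruvate dehydrogenase and the citric acid cycle, 6 fell and 2 rose (MPC1, a subunit of the mitochondrial pyruvate carrier, by 0.92 and PDHX by 0.68), beside the same 15.5% and 20.3% of all genes, and none passed a fold change of 2. Their summed level was 954.6 to 1003 FPKM in sh-Ptbp1-3d and 854.7 to 932.3 in sh-Ptbp1-7d.

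Of 10 tested partners and regulators of HIF, 1 rose and 1 fell from sh-Ptbp1-3d to sh-Ptbp1-7d, beside 20.3% of all genes higher and 15.5% lower. ARNT2, the neural form of the beta subunit, rose by 1.12 (from 0.320 to 0.815 FPKM) and ELOC, a part of the VHL ubiquitin ligase, fell by 0.42. ARNT, EGLN1, EGLN2 and VHL did not pass from sh-Ptbp1-3d to sh-Ptbp1-7d. Of 19 further HIF targets that could be tested, 7 fell and 3 rose, again beside 15.5% of all genes lower and 20.3% higher. The collagen-modifying enzymes P4HA2 and PLOD2 fell by 1.04 and 1.03. In the other direction LOX, which cross-links collagen, rose by 1.89 (adjusted p = 3.36e-07), from 3.38 to 12.8 FPKM.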

How the data were processed

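RNA-seq was made from 9 libraries of U251 cells, in 3 groups of 3 named by their titles (sh-Luci-3d as control, then sh-Ptbp1-3d, then sh-Ptbp1-7d). The values deposited by the authors are FPKM, 1 per gene and library, and the submitters' processing notes name HISAT2 and GRCh38. The positions of loci assembled from the reads, deposited as another kind of value, were used only to find overlaps with members. The counting program, its use of strand and its treatment of multi-mapping reads are not given in the sources used here. FPKM values hold no read counts, so tests for counts were not used and the depth is unknown.

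From these, log2(FPKM + 0.1) was computed for the 15551 genes that averaged 0.1 FPKM or more and fitted with limma 3.58.1 (R 4.3.3), with the 9 libraries in one model and an intensity trend. Adjusted p-values are Benjamini-Hochberg values across all 15551 genes, with an FDR of 0.05 at day 3 and 0.01 with day 7. With 3 libraries against 3, an exact permutation test cannot go below 0.1. The fit was tested on simulated data.

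The members and lists were chosen with earlier results of these data known. All members, the reference and splicing regulator genes and, of the other lists, at most the 4 largest changes in each direction past a fold change of 2 were to be named. Other list genes, and the cell type markers, are named as examples chosen after their values were seen. Positions are from GENCODE v29, and promoters from RefSeq (GRCh38.p14). Some genes of the lists are counted but not reported here by name. Alternatives were other pseudocounts, filters, scalings, models and FDRs, and leaving out each library.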

Additional observations from a re-analysis of the deposited data

How the results depend on the processing

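The number of members past the FDR in sh-Ptbp1-3d against sh-Luci-3d was 0 under every alternative other than leaving out a library, where it ran from 0 to 4, with the 4 found without sh-Luci-3d replicate 3. In sh-Ptbp1-7d relative to sh-Ptbp1-3d it was 23, from 19 to 26 over all alternatives, and against sh-Luci-3d it was 21, from 19 to 24. Without the filter on low values, GAPDH (0.117), SLC16A3 (0.0259), PDK1 (0.015), EPAS1 (0.0135) and PFKFB3 (0.0126) had adjusted p above 0.01 in sh-Ptbp1-7d relative to sh-Ptbp1-3d. The depth behind the FPKM values is unknown, so the precision of genes below 1 FPKM cannot be judged from counts.

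Same-numbered libraries showed no shared deviations. Their deviations correlated between -0.0317 and 0.0512, and those of libraries with different numbers between -0.0729 and 0.0608. Whether the libraries were paired by design is not stated in the labels, and these values cannot settle it. With the replicate number as a block, 0, 22 and 22 members passed in the same order of comparisons.

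Some changes turned their sign. In sh-Ptbp1-3d against sh-Luci-3d these were PFKP (-0.013 with TPM, -0.004 with median-ratio scaling, -0.022 with quantile normalization), GAPDH (0.120 with quantile normalization), ENO1 (-0.009, -0.000 and -0.003 with the same 3 scalings) and ADM (-0.001 with TPM). In sh-Ptbp1-7d relative to sh-Ptbp1-3d they were PFKM (0.095 with TPM), LDHB (0.260, adjusted p = 0.00579) and PDK4 (-0.121), both with quantile normalization. In sh-Ptbp1-7d against sh-Luci-3d they were PFKL (0.039 with TPM), PFKM (-0.009 with median-ratio scaling), PGAM1 (0.008, from -0.428 past the FDR), LDHB (0.286, adjusted p = 0.00333) and PDK4 (-0.198), the last 3 with quantile normalization, and PDK4 (-0.030 with median-ratio scaling). Changes that turned when single libraries were left out are given as ranges over the 9 such fits. In sh-Ptbp1-3d against sh-Luci-3d these were SLC2A1 (-0.029 to 0.025), PFKP (-0.042 to 0.086), ALDOC (-0.412 to 0.928), TPI1 (-0.15 to 0.022), GAPDH (-0.019 to 0.033), PGAM1 (-0.002 to 0.126), ENO1 (-0.028 to 0.06), PKM (-0.056 to 0.016), PFKFB4 (-0.021 to 0.07), PDK4 (-0.257 to 0.278), EPAS1 (-0.035 to 0.125) and ADM (-0.054 to 0.13). Relative to sh-Ptbp1-3d, sh-Ptbp1-7d turned for PFKM (-0.065 to 0.053) and PDK4 (-0.229 to 0.305), and relative to sh-Luci-3d for PFKL (-0.141 to 0.122), PDK4 (-0.16 to 0.245) and VEGFA (-0.191 to 0.004). None of these passed the FDR. The causes were not tested. Quantile normalization moved the share of higher genes among all calls against sh-Luci-3d from 57.9% to 47.7%.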

Other observations

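Genes that make or store glucose also moved at day 7. Of 10 tested genes of gluconeogenesis and glycogen metabolism, 6 fell and 2 rose from day 3 to day 7 of the knockdown, beside 15.5% of all genes lower and 20.3% higher. PC and PCK2, which lead pyruvate towards phosphoenolpyruvate in mitochondria, fell by 0.66 and 0.90. GYS1 and GBE1, which build glycogen, fell by 0.55 and 1.02, and the phosphorylases PYGB and PYGL, which break it down, by 0.79 and 0.60. G6PC3, a glucose-6-phosphatase found in many tissues, rose by 0.74, from 82.9 to 138 FPKM. PCK1, the cytosolic form of the enzyme and a known target of cAMP signalling, was listed at 0 in all 6 day-3 libraries and averaged 0.35 FPKM at day 7. PCK1 is among the 2 counted as higher. It passed the filter on low values only through the day-7 libraries, so its call follows from the filter and carries no weight.

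Among 9 tested regulators of glucose metabolism, 3 rose past a fold change of 2 from day 3 to day 7 of the knockdown, beside 8.31% of all genes. At the FDR alone 3 rose and 2 fell, beside 20.3% of all genes higher and 15.5% lower. TXNIP, an arrestin that lowers glucose uptake and whose transcription follows glucose-sensing factors, went from 10.9 to 230 FPKM in the group means. Its relative ARRDC4 went from 0.364 to 1.12 FPKM, and PPARGC1A, a coactivator of mitochondrial genes, from 1.48 to 5.93 FPKM. MLXIP, the glucose-sensing factor MondoA, fell by 0.80, and PRKAA2, a catalytic subunit of AMPK, by 0.93. TIGAR (0.02) and PRKAA1 (-0.03) did not pass.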
